A study of Mus musculus with 2 samples.

Results

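The cells described here are the Adipoq and Lepr marrow stromal cells of mouse femur and tibia, 4037 of the 55783 cells kept for analysis, with 2835 in the Control library and 1202 in the Dach1OE library. They were chosen by measured values: a cell had to hold no unique molecular identifier (UMI) of the endothelial gene Cdh5 or of the blood cell gene Ptprc, fewer than 5 UMIs of the cartilage gene Acan, and at least 1 UMI of at least 3 of the 8 genes Adipoq, Lepr, Esm1, Hp, Lpl, Chrdl1, Cbln1 and Kng2. These 8 are called the rule genes below, and the limits on Cdh5, Ptprc and Acan the gates. Everything that follows from the rule, the share of these cells included, is a description and was not tested.

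Marrow stromal cells of this kind are perivascular cells that lie along the sinusoids of the marrow cavity. They are known as the main source of the chemokine CXCL12 and of stem cell factor, by which blood stem and progenitor cells are held and kept alive, and they carry the leptin receptor. They express genes of the fat lineage without storing lipid, and they can give rise to marrow adipocytes and, in repair and ageing, to osteoblasts.

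Both libraries came from C57BL/6 mice at postnatal day 30, with males and females together, and all mice had received tamoxifen. The Control mice carried the Dach1OE +/f allele alone, and the Dach1OE mice carried it together with Apj CreERT2, a tamoxifen-inducible Cre driven by Aplnr (Apj), a gene of capillary endothelial cells (ECs), so that Dach1 was to be switched on in vessels and not in the stroma. Per the methods each library pooled a pair of mice. After removal of the epiphysis, bones were digested and crushed and cells bearing blood lineage markers, CD45 or CD117 were depleted, so that any share below is a share of what dissection, digestion and depletion left. With 1 library per group there was no replicate check, no test and no p-value. All intervals are 95% intervals and cover counting error only.

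The tables held 143986818 UMIs in Control and 166999989 in Dach1OE, and 26466 and 29317 cells were kept, with medians of 3794 and 4055 UMIs. Of these, 11297 and 11631 passed the gates. The libraries shared 1049 cell labels, and 109 Control and 30 Dach1OE marrow stromal cells had a label that also occurred in the other library, but only 3 labels belonged to such cells in both. Dach1, the overexpressed gene, lies on the minus strand of chromosome 14 (97786853 to 98169765 on GRCm38). In cells with at least 2 Cdh5 UMIs, which serve as ECs below, it stood at 5.13 CPM (UMIs of the gene scaled to the total UMIs of the group of cells) in Control and 182 CPM in Dach1OE. In the marrow stromal cells Dach1 stood at 5.48 and 7.01 CPM (51 and 29 UMIs), a log2 ratio of 0.35 (−0.36 to 1.04), and Aplnr, the Cre driver, at 7.85 and 7.49 CPM. At 1000 UMIs per cell, 0.642% of Control and 0.508% of Dach1OE marrow stromal cells held a Dach1 UMI, against 0.431% and 17.0% of ECs. The induced gene was thus high in the Dach1OE ECs and near the Control EC level in the stromal cells of both libraries.

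The number of rule genes per cell had a low point between cells with few and cells with many, without a gap. In Control, 5330 cells past the gates held none of the 8, 669 held 2, 222 held 3, 205 held 4 and 889 held 7. In Dach1OE the same numbers were 6909, 564, 150, 126 and 292. In both libraries the lowest of these numbers was at 4 rule genes, within the members and next to the limit of 3. The rule uses the same genes, so this is a description and lends the limit no support. Members with 6 or more made up 72.0% of the Control and 63.6% of the Dach1OE members. Members with 7 of the 8 most often lacked Cbln1 (503 of 889 in Control and 153 of 292 in Dach1OE) or Kng2 (263 and 78), and none lacked Lpl.

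**Figure D1:**
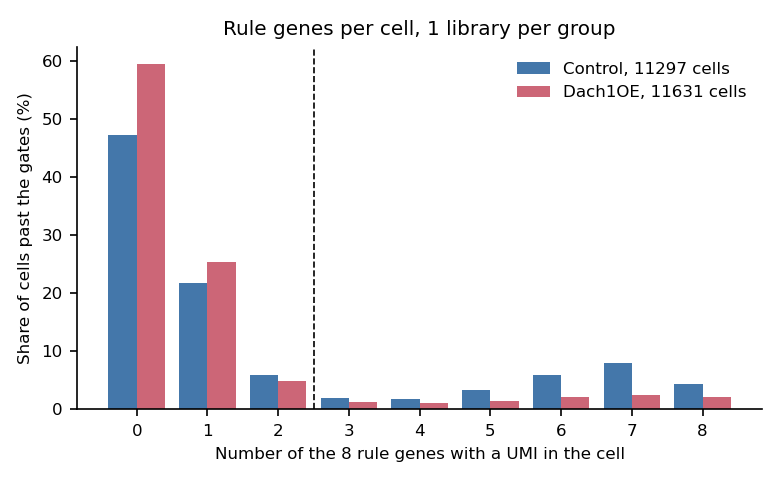
Bars give the share of cells past the gates (percent, y axis) by the number of the 8 rule genes with a UMI in the cell (x axis), for the Control and the Dach1OE library, and the dashed line marks the limit of 3. Both libraries have few cells at 3 and 4 and a second rise that peaks at 7, which is lower in Dach1OE (292 cells) than in Control (889 cells).

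Of the rule genes, given as a description, 7 had a UMI in over 50% of the members of each library, and Cbln1 in 39.3% and 38.3%. Adipoq, which encodes the fat cell hormone adiponectin, stood at 5700 CPM in Control and 4642 CPM in Dach1OE members, against 152 and 56.8 CPM in ECs. Lepr, the leptin receptor, stood at 1499 and 1227 CPM, against 81.8 and 34.4 CPM in ECs. Lpl, the lipase that frees fatty acids from lipoproteins, stood at 10295 and 8062 CPM, against 449 and 261 CPM in ECs. Esm1, a secreted proteoglycan better known from endothelial tip cells, stood at 829 and 647 CPM, against 29.5 and 13.7 CPM in ECs. Hp, the haemoglobin-binding protein haptoglobin, stood at 845 and 794 CPM, and Chrdl1, an antagonist of bone morphogenetic proteins, at 859 and 681 CPM. Cbln1, a secreted protein known as a synapse organizer, stood at 321 and 348 CPM, and Kng2, a kininogen, at 326 and 348 CPM. Adipoq, Lepr, Esm1, Lpl and Chrdl1 thus lay lower in Dach1OE members, with log2 ratios between −0.36 and −0.29, while Hp was at −0.09 and Cbln1 and Kng2 were at 0.12 and 0.10. Marker strata are the members with 3, with 4 and with 5 or more rule genes. Weighted equally, those with 3 and with 4 count as much as those with 5 or more. With marker strata weighted equally Adipoq, Lepr and Lpl were at −0.13, −0.05 and −0.10. Among members with 6 or more rule genes they were at −0.19, −0.29 and −0.28. With at least 4000 UMIs per cell Chrdl1 was at −0.05.

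UMIs of the rule genes were also found in other cells, and the parts of free RNA, mixed cells and expression of their own were not tested. With every cell thinned to 1000 UMIs, which left out 33 Control and 20 Dach1OE members, Adipoq was found in 88.4% of Control members (87.1 to 89.5) and 82.6% of Dach1OE members (80.3 to 84.7), against 3.85% and 1.67% of ECs. Unthinned, the shares were 94.6% and 90.3% of members and 7.27% and 3.37% of ECs. Other rule genes were found more widely. At 1000 UMIs per cell Lpl was found in 21.5% and 15.2% of ECs and Lepr in 6.7% and 2.6%. In the metaphyseal-rule cells defined below Lepr was found in 16.4% and 14.2% and Lpl in 15.25% and 15.12%. The median depth was 2864 and 2964 UMIs in members and 3262 and 3117 UMIs in ECs. Among cells that failed the Cdh5 gate, 5.71% in Control (5.28 to 6.16) and 2.49% in Dach1OE (2.22 to 2.79) would have met the marker limit. Among those that failed the Acan gate it was 5.36% and 2.48%. These shares were lower in the library with fewer members.

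Genes that the rule did not use were compared with the label. Cxcl12, the chemokine that holds blood stem cells in the marrow, stood at 34118 CPM in Control and 29155 CPM in Dach1OE members. Its level in members over metaphyseal-rule cells was higher by 4.25 and 4.26 on the log2 scale in the 2 libraries. Metaphyseal-rule cells, numbering 592 and 551, passed the same gates, held fewer than 3 rule genes and held at least 2 of Wif1, Slitrk6, Aspn and Omd, genes of stroma near the growth plate. Osteoblast-rule cells, 1313 and 1794, held instead at least 4 of Bglap, Ibsp, Ifitm5, Smpd3, Phex and Dmp1, and members exceeded them in Cxcl12 by 8.92 and 9.79. Kitl, which encodes stem cell factor, lay 3.66 and 3.37 above the metaphyseal-rule cells. Ebf3, a transcription factor that keeps the marrow niche from turning into bone, lay 3.19 and 3.04 above them, and Cebpa, a regulator of fat cell differentiation, 3.91 and 3.38 above. Foxc1, another transcription factor of niche stroma, was 1.34 and 1.08 higher. These 5 genes were thus higher in the members than in either comparator, in both libraries, as the label says. They were picked from the niche factors and the regulators listed below. The medians of these lists over metaphyseal-rule cells were 3.58 and 2.83 for the niche factors and 1.07 and 0.92 for the regulators. Not all listed genes followed. Among those that did not were Ptn at −1.18 and −0.78, Jag1 at 0.16 and −0.10, Cebpb at 0.23 and −0.11, Zeb2 at 0.10 and 0.14 and Prrx1 at 0.03 and 0.08. Position in the bone was not measured, so the word diaphyseal could not be checked.

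Of the 6 listed endothelial markers, none was at 0, and together they stood at 129 CPM in Control and 111 CPM in Dach1OE members against 5186 and 4614 CPM in ECs. The 10 blood cell markers summed to 388 and 290 CPM, against 232 and 283 CPM in metaphyseal-rule cells and 228.5 and 217.5 CPM in ECs, and Hba-a1, a haemoglobin gene with a near-identical copy, gave 249.1 and 194 CPM of the sums in members. Of the lipid droplet genes of mature fat cells, Plin1 stood at 1.94 and 9.18 CPM and Cidec at 0.215 and 2.42 CPM. In Dach1OE single cells held 16 of the 38 Plin1 and all 10 Cidec UMIs. Plin2, another lipid droplet gene, stood at 28.6 and 29.5 CPM, 0.89 and 0.67 above the metaphyseal-rule cells on the log2 scale. The 5 listed adipocyte markers, Plin1 and Cidec among them, summed to 375 and 503 CPM, against 1060 and 881 CPM in metaphyseal-rule cells. Of these, Fabp4 stood at 155 and 156 CPM in members. Bglap, the osteoblast hormone osteocalcin, stood at 593 and 1009 CPM, with log2 ratios of −4.72 and −3.76 against the osteoblast-rule cells, and 2.08% of Control and 3.49% of Dach1OE members also met the osteoblast rule.

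The more rule genes a cell held, the more the unused genes separated. From 2 to 3 rule genes, across the limit, Cxcl12 went from 2167 to 9713 CPM in Control and from 2019 to 8279 CPM in Dach1OE. With 8 rule genes it reached 40817 and 39855 CPM. Kitl went from 170 CPM at 2 rule genes to 1686 CPM at 8 in Control and from 211 to 1434 CPM in Dach1OE. Col1a1, the main collagen chain of bone, went the other way, from 32559 to 9527 CPM and from 31823 to 7225 CPM. Wif1, a Wnt inhibitor of metaphyseal stroma, was highest at 3 rule genes (1170 and 1026 CPM) and lowest at 8 (63.6 and 43.7 CPM), so that members near the limit lay nearer to the metaphyseal cells. Mmp9, a matrix protease, stood at 1258 and 5277 CPM with 3 rule genes and at 49.9 and 17.3 CPM with 8. In metaphyseal-rule cells it stood at 1540 and 1580 CPM.

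**Figure D2:**
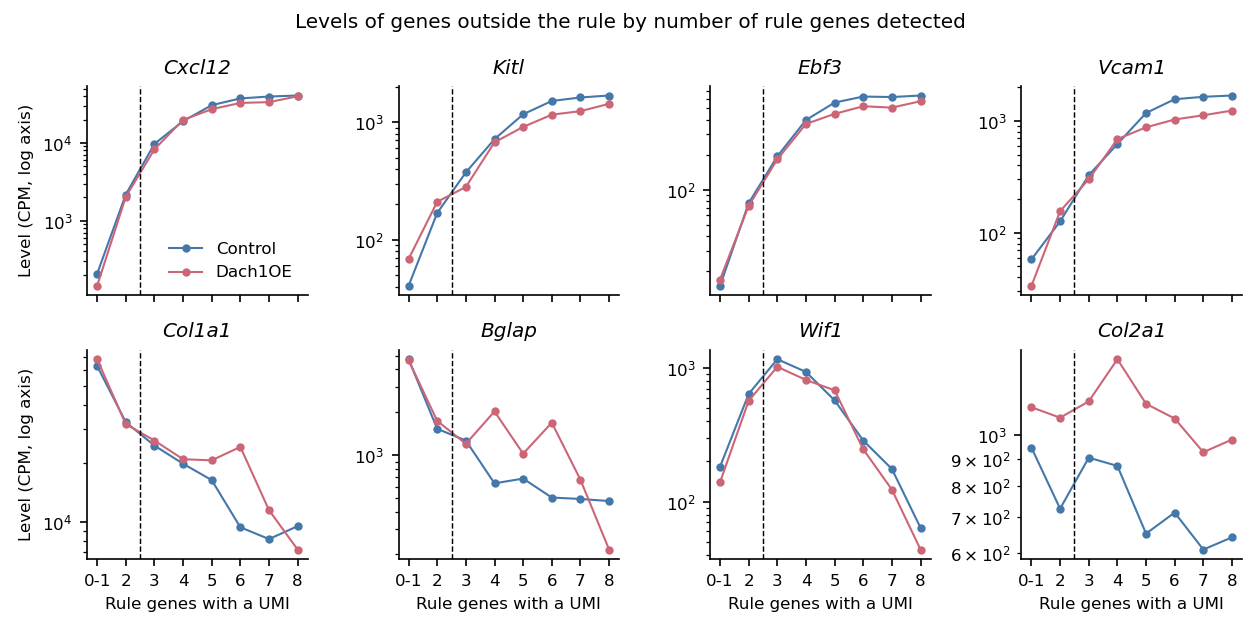
Each panel gives the level of a gene in CPM (log y axis) in cells past the gates grouped by the number of rule genes with a UMI (x axis), for Control and Dach1OE, and the dashed line marks the limit of 3. Cxcl12, Kitl, Ebf3 and Vcam1 are far higher at 8 than at 2 in both libraries, Col1a1, Bglap and Wif1 end low at 8, and Col2a1 lies higher in Dach1OE throughout.

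Among genes at a mean of at least 10 CPM, with the rule and gate genes left out, the 10 furthest above metaphyseal-rule cells were taken by the smaller of the 2 libraries' differences. Il1rn, the secreted blocker of the interleukin 1 receptor, stood at 482 CPM in Control and 462 CPM in Dach1OE members, against 11.5 and 7.42 CPM in metaphyseal-rule cells. Ms4a4d stood at 245 and 180 CPM, against 7.54 and 3.30 CPM. Marc1, a mitochondrial reductase, stood at 140 and 106 CPM, against 3.57 and 2.47 CPM, and Epb41l4b at 192 and 162 CPM, against 5.55 and 6.18 CPM. Adh1, an alcohol and retinol dehydrogenase, was at 102 and 110 CPM, against 4.36 and 4.54 CPM. Serpina3f stood at 90.4 and 45.4 CPM and Serpina3c at 25.9 and 27.1 CPM, in a family of close copies among which reads can be shared. Cd83, better known from dendritic cells, was at 47.4 and 36.7 CPM, and the non-coding 5430403N17Rik at 19.6 and 14.3 CPM. Cxcl10, an interferon-induced chemokine, had no UMI in the metaphyseal-rule cells, but 97.8% of its Control and 95.9% of its Dach1OE UMIs came from the highest 1% of members. It was found in 1.41% and 1.83% of members, and so belonged to few cells. In the other 9 genes the differences lay between 4.55 and 6.25 on the log2 scale, and Serpina3f, Serpina3c, Cd83 and 5430403N17Rik rested on 1 to 3 UMIs in the metaphyseal-rule cells of each library. The set was chosen against metaphyseal-rule cells only. In ECs Serpina3f stood at 73.8 and 15.4 CPM, Cxcl10 at 37.9 and 19.6 CPM and Adh1 at 31.9 and 23.7 CPM. Il1rn stood there at 11.8 and 5.91 CPM, and the rest of the set lay lower.

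Marrow stromal cells took a smaller share of the Dach1OE library, which follows from counting cells by the rule and is given as such. Of cells past the gates they were 25.1% in Control (24.3 to 25.9) and 10.3% in Dach1OE (9.79 to 10.9), a difference of −14.8 percentage points (−15.7 to −13.8), which was −7.61 points among cells with at least 4000 UMIs. Of all kept cells they were 10.7% and 4.10%. Set against the metaphyseal-rule and osteoblast-rule cells (cells meeting both rules included), they were 57.2% (55.8 to 58.6) of the Control and 31.1% (29.6 to 32.5) of the Dach1OE cells. Metaphyseal-rule cells were 5.24% and 4.74% of cells past the gates, a difference of −0.503 points (−1.07 to 0.0607), and osteoblast-rule cells 11.6% and 15.4%, a difference of 3.80 points (2.92 to 4.69). Among cells with Xist and no Y-linked UMI the marrow stromal share was 26.2% and 11.5%, and among cells with Y-linked UMIs and no Xist it was 23.9% and 9.39%. The share was thus lower in Dach1OE cells of either set by nearly the same number of points, −14.7 and −14.6. If each pair of mice was 1 female and 1 male, each of these comparisons sets 1 mouse against 1. Of the 2835 Control and 1202 Dach1OE members, 1108 and 404 were in the Xist set and 506 and 228 in the Y-linked set. A further 96 and 35 held both kinds of UMI and, like the members with none, are in neither set. Values for Xist and Y-linked cells below thus do not cover all members. A share can fall because these cells were fewer or because others were more, and the 2 cannot be told apart here.

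Within the members, counts were summed over cells and divided by their total of 9301484 UMIs in Control and 4137671 in Dach1OE. A gene was a candidate at a mean of at least 10 CPM over the libraries, with rule genes and gate genes left out, and it was called when the libraries differed by at least 2-fold. Of 9175 candidates, 33 were higher in Dach1OE (0.36%) and 15 were lower (0.163%). The median log2 ratio of all candidates was −0.03, and 97.4% lay within 1.5-fold. The counting interval lay above 0 in 8.46% of the candidates and below 0 in 10.9%, and it is narrower, and so further from 0 at the same ratio, in genes with more UMIs. Of the 48 called, 40 had the same sign in Xist and in Y-linked cells, and 18 had an interval wholly past 2-fold. Among members with 6 or more rule genes, 16 of the 33 and 8 of the 15 were still past 2-fold in the same direction. All these cells were part of the members that gave the calls, so like direction was partly built in. The share of like sign over all candidates is not given here. Most genes of these cells therefore stood at like levels in the libraries, and the text below turns on the few that did not.

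**Figure D3:**
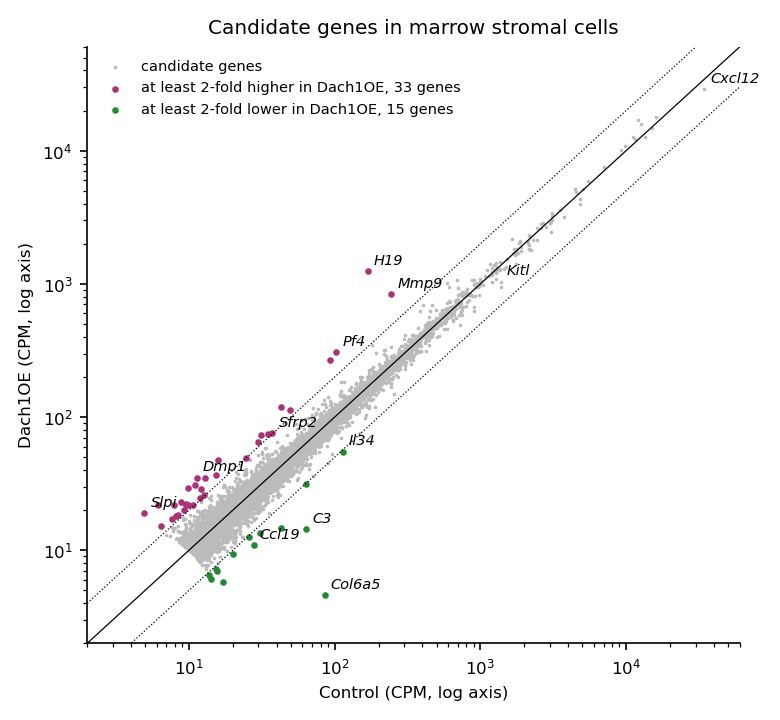
Each point is 1 of the 9175 candidate genes, with its level summed over members of the Control library (CPM, log x axis) and of the Dach1OE library (CPM, log y axis). The solid line marks equal levels and the dotted lines 2-fold, and coloured points are the 33 genes at least 2-fold higher and the 15 at least 2-fold lower. H19 lies farthest above and Col6a5 farthest below among the named genes.

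Among the niche factors, secreted and surface proteins that act on blood cells, 0 of 12 candidates rose past 2-fold and 1 fell, and the median log2 ratio was −0.27 beside −0.03 for all candidates. Il34, a ligand of the CSF1 receptor on macrophages, fell from 114 to 55.1 CPM between Control and Dach1OE members, which is −1.05 on the log2 scale (−1.26 to −0.84), with −0.85 in Xist and −1.31 in Y-linked cells. It was at −0.92 among members with 6 or more rule genes. In ECs it stood at 4.57 and 2.21 CPM (−1.05). Vcam1, the adhesion molecule that binds blood cells, stood at 1386 and 946 CPM, a log2 ratio of −0.55 (−0.60 to −0.50), and was lower in ECs too, at 916 and 438 CPM. The part of free RNA in either gene was not tested. Kitl stood at 1380 and 1041 CPM (−0.41), Cxcl12 at 34118 and 29155 CPM (−0.23), Angpt1, the agonist of the Tie2 receptor, at 305 and 252 CPM (−0.27), and Csf1, the other ligand of the CSF1 receptor, at 709 and 586 CPM (−0.27). Il7, the growth factor of early lymphocytes, stood at 187 and 156 CPM (−0.26), and Igf1 at 1137 and 1138 CPM. Ptn, a heparin-binding growth factor, went against the list, with 111 and 184 CPM, a log2 ratio of 0.73 (0.59 to 0.87). Of the 12, 9 had an interval below 0 and 1 an interval above it, beside 10.9% and 8.46% of all candidates. None but Il34 was called. Dach1OE held relatively more members with 3 or 4 rule genes. With marker strata weighted equally Cxcl12 was at −0.10, Csf1 at −0.04, Kitl and Vcam1 at −0.27 and Il34 at −0.96, with a median of −0.16 for the list. Among members with 6 or more rule genes that median was −0.18.

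Transcription factors of the marrow stroma and the fat lineage were slightly lower as a list, with 0 of 16 past 2-fold in either direction and a median of −0.16. Pparg, the central factor of fat cell formation, stood at 206 and 162 CPM, a log2 ratio of −0.34 (−0.47 to −0.21). Cebpa stood at 339 and 275 CPM (−0.30), Cebpd at 225 and 181 CPM (−0.32), and Cebpb, of the same family, at 88.6 and 60.2 CPM (−0.56, −0.77 to −0.35). Ebf3 stood at 566 and 458 CPM (−0.30) and Ebf1 at 644 and 534 CPM (−0.27), while Ebf2 was at 39.2 and 44.5 CPM (0.18, with an interval that held 0). Thus 10 of the 16 intervals lay below 0 and none above, beside 10.9% and 8.46% of all candidates. With marker strata weighted equally the median of the list turned to 0.04.

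Of 18 listed lipid genes, 12 were candidates and none passed 2-fold, with 5 intervals above 0 and 3 below (8.46% and 10.9% of all candidates). Their median was 0.28, which was 0.05 in Xist cells and 0.64 in Y-linked cells, and the list summed to 2623 CPM in Control and 2586 CPM in Dach1OE members. Scd1 and Scd2, desaturases of fatty acids, stood at 31.7 and 54.9 CPM (0.79) and at 62.4 and 97.2 CPM (0.64). A single Dach1OE cell held 58 of the 227 Scd1 UMIs of that library, and Scd1 was at 0.28 in Xist cells, 1.68 in Y-linked cells and 0.46 with 6 or more rule genes. Angptl4, a secreted inhibitor of lipoprotein lipase, was lower, at 111 and 70.1 CPM, a log2 ratio of −0.66 (−0.86 to −0.47). It was lower in ECs too, at 124 and 60.6 CPM (−1.03), and the part of free RNA was not tested. Apoe, the apolipoprotein of remnant particles, stood at 1905 and 1774 CPM (−0.10).

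Of the complement and acute phase genes, 9 of 11 were candidates, with 0 past 2-fold higher, 1 lower and a median of −0.14. C3, the central complement component (GRCm38 chromosome 17, 57203970 to 57228136, minus strand, protein coding), fell from 64.0 to 14.5 CPM (595 and 60 UMIs), or by −2.14 on the log2 scale (−2.55 to −1.76). C3 was lower in Xist cells (52.2 and 17.7 CPM) and in Y-linked cells (82.7 and 12.4 CPM), and by −2.07 among members with 6 or more rule genes. It was at −1.30 with at least 4000 UMIs. At 1000 UMIs per cell, 6.28% of Control (5.41 to 7.24) and 1.44% of Dach1OE members (0.840 to 2.29) held a C3 UMI, against 0.160% and 0.0113% of ECs. The unthinned shares were 13.8% and 4.58% of members. C3 and Il34 were thus lower in Dach1OE among Xist and among Y-linked members, which for C3 was also a condition of the set of largest falls below. Clu, the chaperone clusterin, stood at 729 and 491 CPM (−0.57), and C1ra and C1s1, proteases of the classical pathway, were at −0.42 and −0.40. C4b, another complement component, was higher, at 442 and 568 CPM (0.36).

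The promoter of C3 is shown because C3 had the lowest log2 ratio of all listed candidates, and that of Adipoq because it leads the rule. The motif TTGCNNAA is known to be bound by C/EBP factors, and no link between them and the level of C3 was tested. The stretches are the 100 bases before the RefSeq start on GRCm38.p6, on the strand of the gene, at chr17:57228137-57228236 (minus strand) for C3 and chr16:23146436-23146535 (plus strand) for Adipoq. Capitals mark the motif.
C3: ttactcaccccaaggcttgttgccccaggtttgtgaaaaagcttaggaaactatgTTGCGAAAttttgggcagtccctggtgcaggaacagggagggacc
Adipoq: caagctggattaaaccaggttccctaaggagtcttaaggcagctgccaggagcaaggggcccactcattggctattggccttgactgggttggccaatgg
The motif was searched on both strands of 300-base windows from 250 bases before to 50 bases after the start, and 10.8% of 32851 windows held it. Of 14 genes looked for (the rule genes and Cxcl12, Kitl, C3, Col6a5, Il34 and H19), 8 had a window. In C3 the motif began at position −45 from the start, and Kng2 and 1 of the 2 windows of Lepr held it on the other strand, while Adipoq, Esm1, Cxcl12, Kitl and Col6a5 did not. A match is a description of letters and says nothing of binding.

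Osteogenic genes had a median of 0.26, with 1 of 19 candidates past 2-fold higher and 0 lower. Dmp1, a matrix protein of osteocytes, stood at 11.3 and 35.0 CPM (1.63, 1.26 to 2.01), but at −1.53 in Xist cells, 3.34 in Y-linked cells and −0.59 among members with 6 or more rule genes. Bglap was at 0.77 (0.71 to 0.82) over all members, with 79.5% of its Control and 60.5% of its Dach1OE UMIs in the highest 1% of cells, but at −0.11 in Xist cells and 0.15 in Y-linked cells, and Col1a1 at 0.50, −0.23 and 0.12. For Col1a1, 54614 of 111694 Control UMIs lay in Xist cells and 21904 in Y-linked cells. In Dach1OE the same numbers were 17952 and 11360 of 70153. The other Col1a1 UMIs lay in members of neither set. The list median was −0.04 in Xist cells and 0.15 in Y-linked cells. Mef2c, a transcription factor of bone and muscle, was at 0.59 (0.40 to 0.77), with 0.50 in Xist and 0.74 in Y-linked cells. Sp7, the osteoblast factor osterix, was at 0.26, with −0.32 and 0.49, and Runx2 at 0.06. Col1a1 and Bglap also lay higher in the Dach1OE ECs, by 0.54 and 0.35. Their part in the values of the members was not tested.

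Among Wnt and BMP antagonists, 1 of 9 candidates passed 2-fold higher and 0 lower, with a median of 0.06. Sfrp2, a secreted Wnt modulator, rose from 37.4 to 75.9 CPM, or by 1.02 on the log2 scale (0.80 to 1.25), at 1.52 in Xist and 0.20 in Y-linked cells. Grem1, a BMP antagonist of skeletal stem cells, stood at 422 and 314 CPM (−0.43), with −0.06 in Xist and −0.66 in Y-linked cells. Of the hypoxia and glycolysis genes, 0 of 17 candidates passed 2-fold and the median was 0.18, with 10 intervals above 0 and 1 below (8.46% and 10.9% of all candidates). Hmox1, haem oxygenase 1, was at 0.79 (33.8 and 58.5 CPM), Gapdh and Eno1, enzymes of glycolysis, at 0.39 and 0.38, and Epas1, which encodes HIF2α, at −0.33 (504 and 401 CPM), with −0.07 in Xist and −0.56 in Y-linked cells. Hif1a, its relative, was at 0.16 with an interval that held 0. Hormone and cytokine receptors had a median of −0.18 with 0 of 12 past 2-fold, 7 intervals below 0 and 1 above (10.9% and 8.46% of all candidates). There the insulin receptor Insr was at −0.40 (24.5 and 18.6 CPM) and the parathyroid hormone receptor Pth1r at 0.24 (117 and 139 CPM). Signals to vessels had a median of −0.10 with 0 of 8 past 2-fold, and Nrp1, a co-receptor of semaphorins and VEGF, was at −0.35 (442 and 346 CPM), and at −0.06 with marker strata weighted equally. The medians of the IGF binding proteins (5 of 6 candidates), interferon genes (10 of 12), other matrix genes (18 of 18), stromal surface proteins (8 of 9), immediate-early genes (15 of 18) and cell cycle genes (10 of 10) were −0.09, −0.07, 0.02, 0.17, 0.11 and −0.08, and 0 of their candidates passed 2-fold. Each of these 6 medians changed sign in at least 1 of 15 alternatives, as did those of the antagonists, the receptors and the signals to vessels.

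**Figure D4:**
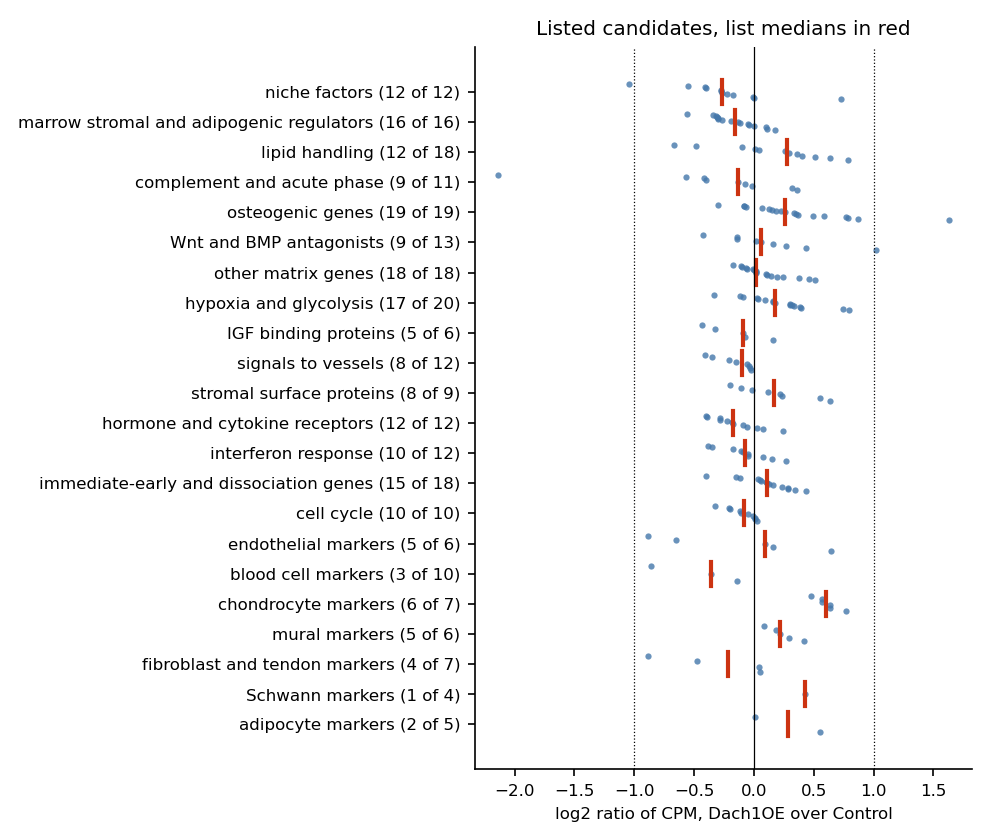
Points give, on a log2 scale, the Dach1OE level divided by the Control level (CPM) of the candidate genes of each list in the marrow stromal cells, red bars the list medians and dotted lines 2-fold, and the numbers of candidates among listed genes stand beside the names. The niche factors have a median of −0.27 and the chondrocyte markers one of 0.60, and Il34, C3, Dmp1 and Sfrp2 are the 4 genes past a dotted line.

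Markers of other cell types moved as well. All 6 candidate chondrocyte markers of 7 listed were higher, with a median of 0.60, and the list summed to 979 CPM in Control and 1506 CPM in Dach1OE members. Col2a1, the main cartilage collagen, stood at 687 and 1067 CPM in members, and the list stood at 997 and 1437 CPM in ECs, cells that should lack it. Cartilage transcripts thus lay about as high in ECs as in members, in both libraries. The 6 mural cell markers summed to 821.5 and 987.5 CPM, the 7 fibroblast and tendon markers to 253 and 235 CPM, the 4 Schwann cell markers to 107 and 129.5 CPM and the 5 adipocyte markers to 375 and 503 CPM, with no marker at 0. Their part in the results was not tested.

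The 10 genes with the largest rise of like sign in Xist and Y-linked cells were led by H19 (chromosome 7, 142575529 to 142578143, minus strand), an imprinted non-coding RNA of growing tissue. It stood at 168 CPM in Control and 1249 CPM in Dach1OE members, a log2 ratio of 2.89 (2.81 to 2.98), at 4.04 in Xist and 3.24 in Y-linked cells and at 3.31 with 6 or more rule genes. Over the alternatives H19 ran from 2.19 with at least 2 rule genes to 5.59 with at least 4000 UMIs. It was found in 5.75% of Control and 19.97% of Dach1OE members, and the highest 1% of cells held 82.9% and 34.0% of its UMIs. At 1000 UMIs per cell the shares were 2.93% (2.33 to 3.62) and 13.1% (11.2 to 15.2), against 1.45% and 9.51% of ECs. H19 also stood at 21.7 and 440 CPM in ECs, and the part of free RNA in its rise was not tested. In the stroma its UMIs came from a minority of cells.

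The other 9 of that set were few in molecules or held by few cells. Slpi, a protease inhibitor, rose from 4.95 to 19.1 CPM (46 and 79 UMIs, 1.95) and C1qtnf3, a secreted relative of adiponectin, from 7.96 to 21.8 CPM (1.45). A single Dach1OE cell held 27 of the 79 Slpi UMIs. With 6 or more rule genes Slpi was at 2.05 and C1qtnf3 at 0.9997, and with at least 2 they were at 0.24 and 0.33. Pf4 and Ppbp, chemokines stored in platelets, rose from 102 to 307 CPM (1.59) and from 92.6 to 266 CPM (1.52), and stood at 124 and 110 CPM and at 119 and 103 CPM in ECs. In Control, 14 cells with at least 10 Pf4 UMIs held 67.3% of the Pf4 UMIs of members, and in Dach1OE 13 cells held 86.5%. Among members with 6 or more rule genes Pf4 was at −0.09 and Ppbp at 0.999. Clec1b, Plek, Rgs18 and Nrgn, all expressed in platelets or their precursors, were at 1.83, 1.59, 1.48 and 1.47 over all members and between 0.73 (Rgs18) and 1.32 (Clec1b) with 6 or more rule genes. Mmp9 rose from 245 to 833 CPM (1.76), but 26 and 34 cells with at least 10 UMIs held 85.4% and 94.98% of it, and it was at −0.43 with 6 or more rule genes. In Mmp9 and Pf4 the values thus came mainly from few cells. Among members with 6 or more rule genes the interval of Mmp9 lay below 0 (−0.86 to −0.02) and that of Pf4 held 0 (−0.30 to 0.11).

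Among the 10 genes with the largest fall of like sign in Xist and Y-linked cells, Col6a5 (chromosome 9, 105856078 to 105960643, minus strand), a collagen VI chain, went from 85.3 to 4.59 CPM (793 and 19 UMIs), with a log2 value of −4.22 (−4.95 to −3.56). It stood at 16.7 and 2.72 CPM in Xist cells and at 155 and 5.63 CPM in Y-linked cells. Control was above Dach1OE in Xist and in Y-linked cells, as the choice of these genes required, and within Control the Y-linked cells were far above the Xist cells. At 1000 UMIs per cell, 7.78% of Control (6.82 to 8.84) and 0.254% of Dach1OE members (0.0524 to 0.740) held a Col6a5 UMI, against 0.259% and 0.0338% of ECs, and the Dach1OE shares rested on 3 members and 3 ECs, with intervals that overlapped. Its relatives Col6a1, Col6a2 and Col6a3 were at −0.10, −0.06 and 0.37.

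C3, described above, came next. Ccl19, a chemokine of lymphocytes with near-identical gene copies, fell from 27.7 to 10.9 CPM (−1.35) and Adrb3, the fat cell adrenergic receptor, from 15.4 to 7.25 CPM (−1.08). Gpr171, an orphan receptor, fell from 14.2 to 6.04 CPM (−1.23), Aldh1a1, a retinal dehydrogenase, from 20.2 to 9.43 CPM (−1.10), Chchd10, a mitochondrial protein, from 15.6 to 7.01 CPM (−1.15) and Pkmyt1, a kinase that restrains entry into mitosis, from 13.7 to 6.52 CPM (−1.06). The unnamed genes Gm47283 and Gm32618 were at −1.54 and −1.19. Of these, Gm47283 lies on chromosome Y (90784738 to 90816464) in the annotation and also stood at 57.1 and 21.0 CPM in Xist cells. Where its counts come from was not tested. With 6 or more rule genes Ccl19, Gpr171, Gm32618 and Gm47283 were at −1.30, −1.23, −2.05 and −1.47, while Chchd10, Adrb3, Pkmyt1 and Aldh1a1 were no longer past 2-fold, at −0.74, −0.88, −0.88 and −0.24. Of those still past 2-fold there, Gpr171 was at −0.21 in Xist cells and Gm47283 at −0.96 in Y-linked cells. Ccl19 was at −0.70 with at least 4000 UMIs and Gm32618 at −0.54 with at least 2 rule genes.

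**Figure D5:**
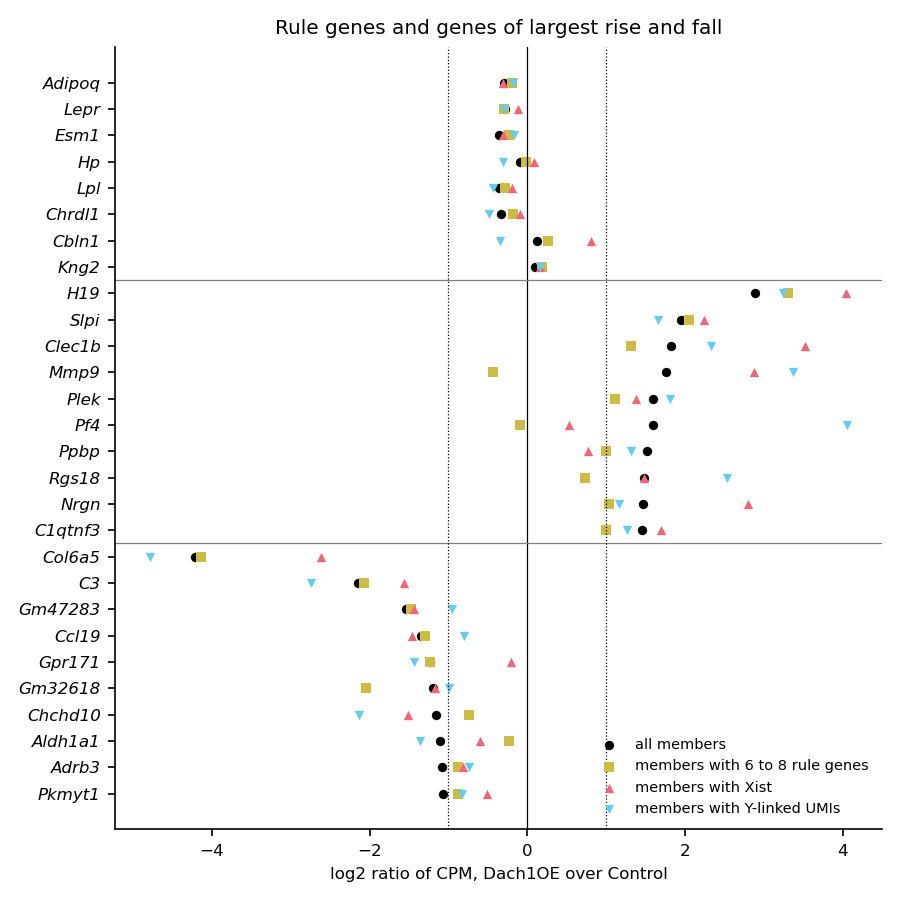
For the 8 rule genes, the 10 genes with the largest rise and the 10 with the largest fall (y axis, top to bottom), symbols give the log2 of the Dach1OE level divided by the Control level (CPM, x axis), over all members, members with 6 to 8 rule genes, members with Xist and members with Y-linked UMIs. Every symbol of H19 lies at 2.89 or above and every symbol of Col6a5 at −2.62 or below, while those of Mmp9 and Pf4 stand on both sides of 0. Like sign in Xist and Y-linked members was a condition for the genes of largest rise and fall.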

How the data were processed

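The authors' deposited tables hold counts per cell and gene, as reads, as raw UMIs and as UMIs corrected for sequence errors (RSEC). Per the file headers, version 1.11 of the BD Rhapsody WTA pipeline made them on GRCm38 with GENCODE vM19 and with intronic reads counted. The methods state another pipeline version. Whether counting used strand is not stated, so overlapping and antisense genes are uncertain. RSEC-adjusted UMIs were used, unnormalized as deposited. Cells with 500 to 6000 genes and under 25% mitochondrial UMIs were kept, and no doublets were removed. Scrublet (scanpy 1.11.5) marked 6.17% of Control and 6.32% of Dach1OE members, which were left out in an alternative. Sums per library were divided by the members' total (CPM). Shares carry exact binomial intervals (differences, Newcombe), CPM ratios exact conditional ones. A count of 0 was set to a floor of 3 counts over the group for a ratio, as a bound. Named genes are the rule genes, all listed genes, the 10 largest rises and 10 largest falls of like sign in both sexes, and the 10 genes furthest above metaphyseal-rule cells. Members, the 22 lists (248 genes) and these rules were chosen with earlier results of these data known. The ratio and its interval were tried on simulated Poisson counts with known folds, which hold no spread between animals. Alternatives were the marker limit, the rule genes, depth, mitochondrial limit, gene minimum, raw UMIs, doublets, sex, edgeR 4.0.16 TMM factors, composition and no minimum level. Coordinates are from GENCODE vM21 on GRCm38. Python 3.11.15 and scipy 1.17.1 were used.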

Additional observations from a re-analysis of the deposited data

Results flagged for a closer look

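In 4 listed genes the log2 ratio, Dach1OE over Control, was past 2-fold in opposite directions in members with Xist and in members with Y-linked UMIs, with both intervals away from 0. The difference between the sexes was not tested, and with a pair of mice per library sex and animal cannot be told apart. Such opposite signs of any size, with both intervals away from 0, were seen in 21 of the 248 listed genes. The same share over all candidates is not given here, so these counts cannot be called unusual. Serpina3n, an acute phase serpin, was at −2.75 in Xist cells (82.5 and 12.2 CPM) and at 4.82 in Y-linked cells (4.30 and 122 CPM), in a family of close copies. Dmp1 was at −1.53 and 3.34. Thy1, a surface protein of fibroblasts and T cells, was at 1.30 (20.1 and 49.5 CPM) and −1.23 (31.7 and 13.5 CPM). Thbs4, a matrix protein of tendon, was at 1.58 and −7.00.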

How the results depend on the processing

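The marrow stromal share was lower in Dach1OE under every alternative run for it. The difference in points moved beyond its counting interval to −15.8 with at least 2 rule genes, −12.1 with cells thinned to 2000 UMIs, −7.61 with at least 4000 UMIs and −19.2 under 10% mitochondrial UMIs. It was −11.5 with at least 6 rule genes and −12.1 without members that held Xist with Y-linked UMIs, met the osteoblast rule or held a Pf4, Ppbp, Mmp9 or Pecam1 UMI, both chosen after seeing the data. The members so left out are called mixed members, but Mmp9 also stood at 1540 and 1580 CPM in the metaphyseal-rule cells. The numbers of genes past 2-fold, 33 higher and 15 lower, became 52 and 27 after thinning, 85 and 61 in Xist cells, 147 and 159 in Y-linked cells, 57 and 100 with equal weights of marker strata and 555 and 921 with no minimum level. They were 44 and 40 with at least 4000 UMIs, 22 and 14 with at least 2 rule genes and 24 and 28 without the mixed members. The genes changed as well. Of the 33 and the 15, 8 and 7 were called again with at least 2 rule genes, 21 and 7 after thinning and 13 and 7 in Y-linked cells. With raw UMIs it was 33 and 14. Mmp9 turned to −0.25 with at least 4 rule genes, −1.37 without Hp and Lpl in the rule and −0.43 with at least 6. Pf4 went to −0.0904 with at least 6, with an interval that held 0. Dmp1 turned to −0.59 with at least 6, to −1.53 in Xist cells and to −0.37 without mixed members, and Plek to −0.50 without them. The causes were not tested. The median of the niche factors stayed below 0 in all 15 alternatives run (−0.46 to −0.16). Genes near 10 CPM rested on few UMIs, fewer in Dach1OE and in the sexes taken alone. Gpr171, for example, had 132 UMIs in Control and 25 in Dach1OE members, with 9 and 6 in Dach1OE Xist and Y-linked cells.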
